A study of Mus musculus with 4 samples.

Results

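The nuclear-encoded genes of oxidative phosphorylation were examined in J774.1 cells, a mouse monocyte-macrophage line, after exposure to proteasome inhibitors. Members were chosen by name alone: every gene on the array whose RefSeq symbol begins with Ndufa, Ndufb, Ndufc, Ndufs or Ndufv (complex I), Sdh (complex II), Uqcr (complex III), Cox4, Cox5, Cox6, Cox7 or Cox8 (complex IV), or Atp5 (complex V), without pseudogenes. This gave 97 genes of 20144 named on the arrays: 46 in complex I, 8 in complex II, 8 in complex III, 18 in complex IV and 17 in complex V. Of them, 76 encode subunits, 13 encode assembly factors or associated proteins, and 8 are isoforms known mainly from particular tissues, such as muscle or testis. Ndufa4 was counted under complex I by its name, although its protein is now placed in complex IV.

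The inner mitochondrial membrane carries the 5 complexes. Complex I takes electrons from NADH and complex II takes them from succinate; ubiquinone carries them to complex III, cytochrome c carries them to complex IV, and oxygen accepts them there. Complexes I, III and IV pump protons, and complex V, the ATP synthase, uses the returning protons to make ATP. Complexes I, III, IV and V mix subunits from both genomes, so their assembly depends on matched supply and on dedicated assembly factors, whereas complex II is encoded wholly in the nucleus. Macrophages shift between this pathway and glycolysis with their state of activation.

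RNA of 4 cultures was hybridised, each to 1 one-colour (Cy3) mouse Agilent array: cells in DMSO, the solvent control, and cells with 1 μM MG132, epoxomicin or ONX0914 for 4 hours. MG132 is a peptide aldehyde and epoxomicin an epoxyketone, both acting on the catalytic sites of the proteasome core, while ONX0914 is directed at the β5i site of the immunoproteasome and at β5. All 4 cultures were of the same line in the same serum-containing medium. The treatment label of the ONX0914 array spells the compound ONX-0912, while its title and the treatment protocol give ONX0914. Each condition has 1 array, so there was no replicate spread between cultures and no test of any difference, and all 3 comparisons share the DMSO array.

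The processed signal of each spot (Agilent intensity after background subtraction) was expressed as log2 minus the 75th percentile of its array, and a difference is inhibitor minus DMSO on that scale. The 75th percentile of the signal lay between 1453 and 1683 over the arrays, and between 60.3% and 63.1% of probes were well above background. Spots of a probe printed several times had a median SD of at most 0.06 log2, which is the technical spread within an array and not that between cultures. The macrophage origin was visible in the markers: 9 of 9 named macrophage markers, with Csf1r the brightest, were well above background on all arrays, whereas 0 of 3 B cell markers was so on any array. Cd3e and Cd4 of the T cell list, Col1a2 of the fibroblast list and all 3 endothelial markers were also well above background on all arrays. Cd4 reached 4575, Kdr 6430 and Col1a2 85.6. The summed signal of the macrophage list was between 276650 and 358530, and that of the epithelial list 21.2 under DMSO, 64.3 under MG132, 169 under epoxomicin and 27.3 under ONX0914. The part of other cell types in the results was not tested. In bulk RNA, fewer cells of a type and less RNA per cell cannot be told apart.

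Promoter sequence was at hand for 80 of the 97 members. The 4 stretches below are the 150 bases before the transcription start from RefSeq (GRCm38.p6), on the strand of the gene, and are shown because they carry letters recognised by the factors best known for respiratory chain promoters: NRF1 (core CGCATGCG) and the ETS family, which includes GABP (CCGGAAGT). Capitals mark such a match on either strand. Atp5k and Uqcrh had the most negative differences from DMSO among the subunits of complexes V and III, while Atp5g2 and Ndufa11 hold the same NRF1 letters as Atp5k and lay closer to DMSO.
Atp5k, chr5:108434400-108434549, minus strand: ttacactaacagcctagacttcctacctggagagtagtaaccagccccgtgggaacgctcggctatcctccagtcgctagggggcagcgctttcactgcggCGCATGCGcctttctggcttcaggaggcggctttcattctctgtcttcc
Atp5g2, chr15:102671048-102671197, minus strand: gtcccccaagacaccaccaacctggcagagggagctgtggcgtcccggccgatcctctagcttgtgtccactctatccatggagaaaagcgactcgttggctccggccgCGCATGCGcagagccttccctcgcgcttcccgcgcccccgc
Ndufa11, chr17:56717612-56717761, plus strand: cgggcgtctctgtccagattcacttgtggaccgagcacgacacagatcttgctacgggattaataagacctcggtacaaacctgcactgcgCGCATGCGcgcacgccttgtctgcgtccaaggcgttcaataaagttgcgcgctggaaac
Uqcrh, chr4:116075071-116075220, minus strand: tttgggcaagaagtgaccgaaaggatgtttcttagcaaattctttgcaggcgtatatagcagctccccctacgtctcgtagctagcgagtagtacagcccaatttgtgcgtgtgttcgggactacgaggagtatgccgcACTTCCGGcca

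Most members were expressed on every array. Of the 97 genes, 93 were well above background on all 4 arrays, Ndufa4l2 was so on some, and the isoform genes Cox7b2, Cox8b and Cox8c were so on none. Signals under DMSO ran from 199 for Cox6b2, a testis isoform, to 228990 for Cox6a1 among the 93, though levels of different probes cannot be set against each other. Genes that cleared background on 1 or both of the arrays being compared were kept, which left 94 members for MG132, 94 for epoxomicin and 93 for ONX0914.

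The members were modestly lower as a group with the 2 broad inhibitors and near DMSO with ONX0914. With MG132 the median difference was −0.29 log2 (0.82 of the DMSO level), with quartiles at −0.54 and −0.14, and 81 of 94 members (86.2%) lay below DMSO, against 52.1% of all 13773 genes compared. Epoxomicin gave a median of −0.32 (0.80 of DMSO), quartiles at −0.56 and −0.14, and also 81 of 94 members below DMSO, against 53.7% of 13875 genes. With ONX0914 the median was −0.07 (0.95 of DMSO), quartiles at −0.16 and 0.00, and 67 of 93 members (72.0%) lay below, against 51.2% of 13796 genes. The medians of all genes compared were −0.02, −0.04 and −0.01. A set of 2987 genes at least as bright as the lower quartile of the members had medians of −0.05, −0.06 and −0.01. The members' medians lay 0.23, 0.25 and 0.06 below those of this set. It has no upper limit of brightness and includes members, so brightness was not matched.

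The sign against all genes depended on the background correction. With normexp, a model-based correction, fitted on all spots, the median over all genes moved by −0.25, −0.26 and −0.16, the members' medians were −0.17, −0.25 and 0.05, and their difference from all genes turned to 0.10, 0.05 and 0.22. Against the genes at least as bright as the members' lower quartile, the members stayed lower under the same correction, by 0.26, 0.34 and 0.08. With outlier spots left out of the normexp fit the members' medians were −0.31, −0.37 and −0.06, and their difference from all genes was negative again, at −0.31, −0.35 and −0.08.

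With MG132, 2 members were at least 2-fold lower, Sdhaf1 and Sdhaf4, where 3.65% of all genes were, and 1 was at least 2-fold higher, Ndufa4l2, where 7.25% were. With epoxomicin 4 were at least 2-fold lower, those 2 with Uqcrh and Atp5k, against 4.49% of all genes, and Ndufa4l2 was again the one at least 2-fold higher, against 8.41%. None of the 93 passed 2-fold in either direction with ONX0914, where 1.41% of all genes were lower and 3.27% higher. At the smaller threshold of 1.5-fold, 20 of 94 members were lower with MG132 and 23 of 94 with epoxomicin, against 12.9% and 14.5% of all genes, and 1 of 93 was lower with ONX0914, Sdhaf1, against 5.21%. Ndufa4l2 alone was at least 1.5-fold higher with MG132 and with epoxomicin, where 14.9% and 16.4% of all genes were, and no member was so with ONX0914, against 7.59%. The counts of members at least 2-fold lower lay near the share over all genes. Ndufa4l2 was kept only through the arrays on which it was bright, so its direction was set by that filter.

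**Figure D1:**
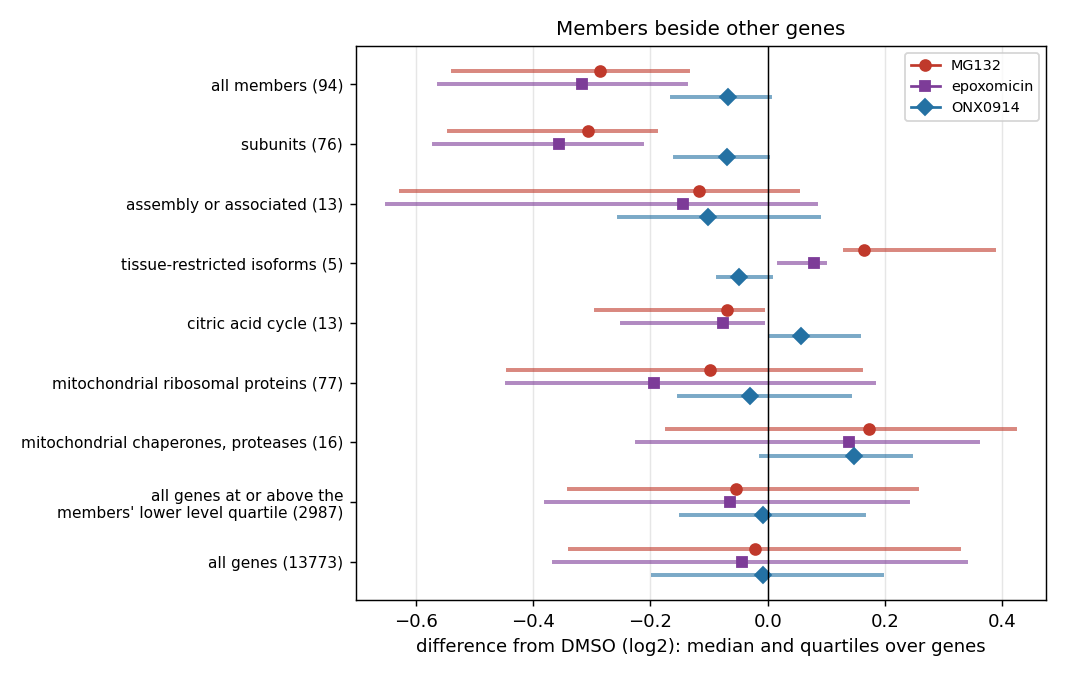
Median (symbols) and quartiles (lines) of the log2 difference from DMSO over the genes of each list, for MG132 (circles), epoxomicin (squares) and ONX0914 (diamonds); the number in brackets is the genes compared with MG132. The medians of all members lie at −0.29, −0.32 and −0.07, to the left of those of all genes at −0.02, −0.04 and −0.01, while the medians of mitochondrial chaperones and proteases lie to the right of 0. The isoform list includes the lower bounds of Ndufa4l2.

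With MG132 and epoxomicin the displacement was seen mainly among the structural subunits, by the median and the share of genes below DMSO. Of the 76 subunit genes, 72 were below DMSO with MG132 and 72 with epoxomicin, at medians of −0.31 and −0.36, and 56 were below with ONX0914, at −0.07. The 13 assembly and associated genes were mixed, with 8 below DMSO under each inhibitor and medians of −0.12, −0.14 and −0.10. Of the tissue-restricted isoforms, 4 were well above background on all arrays. Cox6b2, Cox4i2 and Cox6a2 were at 0.13, 0.16 and 0.39 with MG132 and at 0.10, 0.02 and 0.08 with epoxomicin, and Cox7a1 was at −0.48 and −0.50. With ONX0914 these 4 ran from −0.18 for Cox7a1 to 0.16 for Cox4i2.

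**Figure D2:**
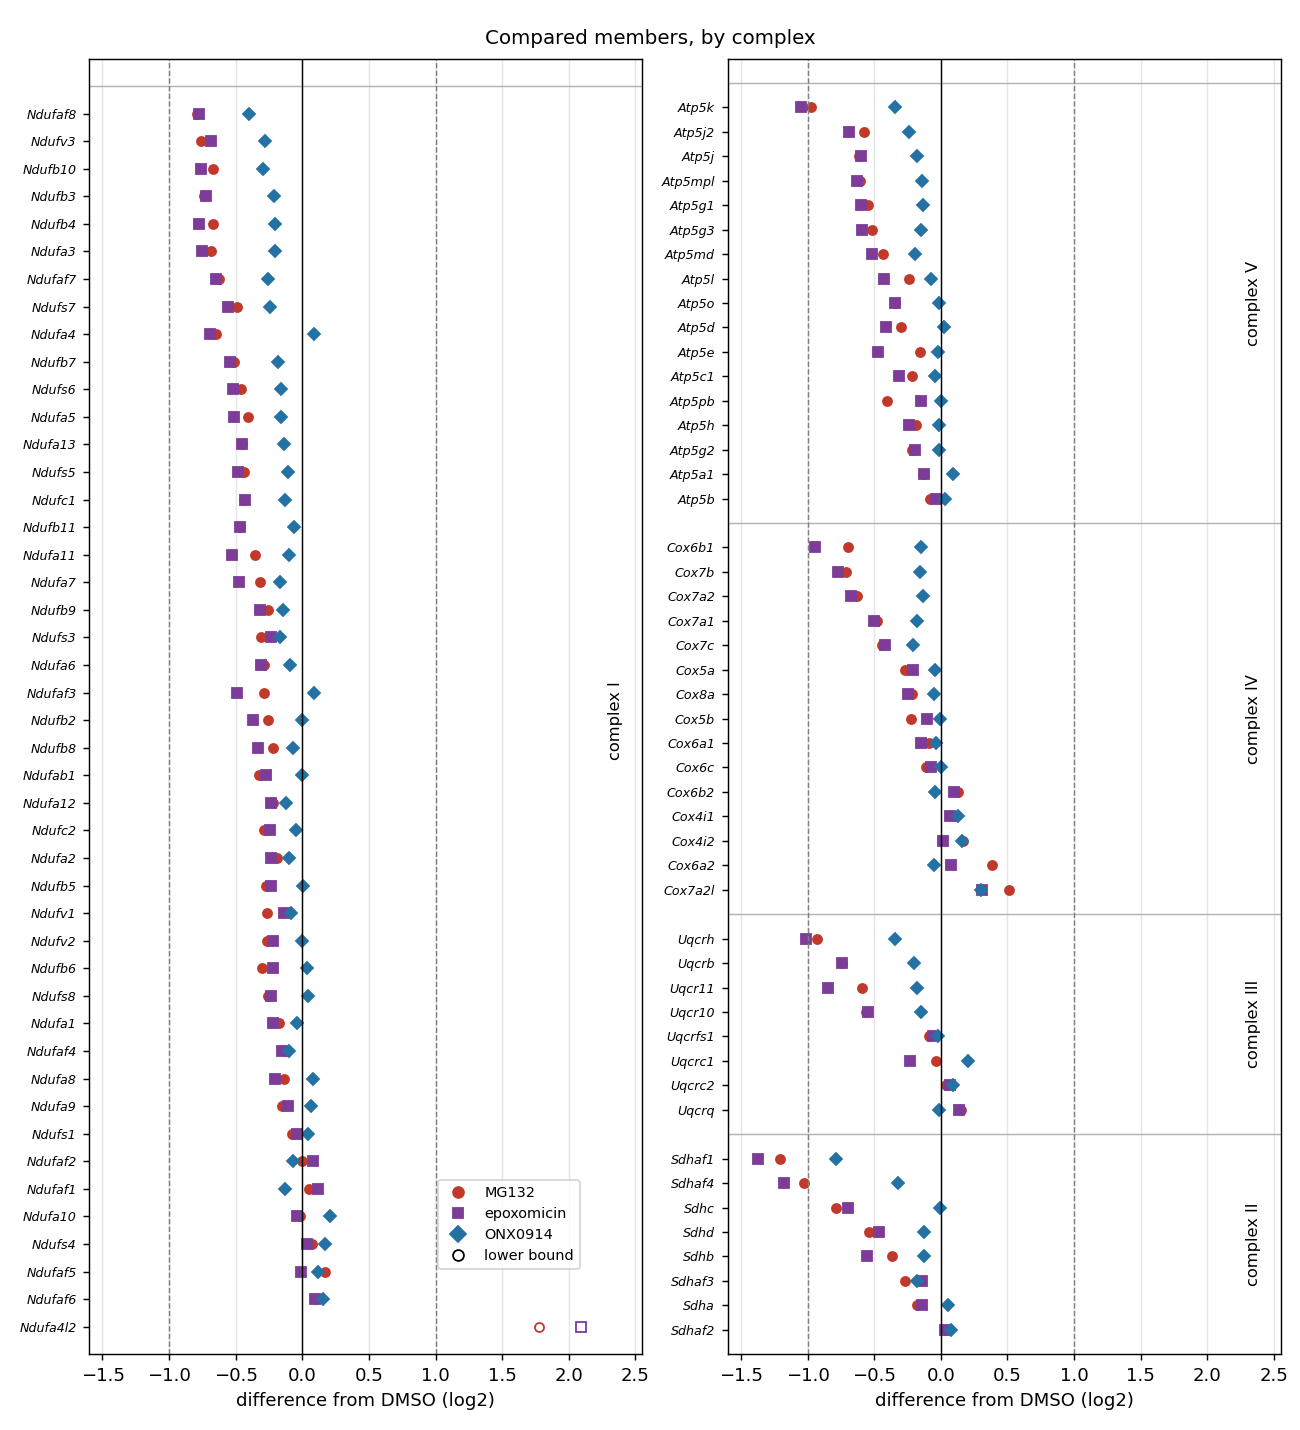
Log2 difference from DMSO (horizontal axis) of the compared members but 1, ordered within each complex by the mean of its differences, with MG132 as circles, epoxomicin as squares and ONX0914 as diamonds; open symbols are lower bounds and dashed lines mark 2-fold. Circles and squares lie to the left of diamonds for most genes, all 17 complex V genes have circles and squares left of 0, and the bounds of Ndufa4l2 are the points beyond 1.

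In complex I the displacement was spread over many subunits and none reached 2-fold downward. The medians over its genes were −0.29, −0.30 and −0.09 for MG132, epoxomicin and ONX0914, the order used from here on, with 41 of 46, 41 of 46 and 31 of 45 genes below DMSO. The 7 subunits that carry the flavin and the iron-sulfur clusters had medians of −0.26, −0.23 and 0.00, and the 30 accessory subunits had medians of −0.32, −0.40 and −0.10. Within the redox core, Ndufs7 was the lowest, at −0.49, −0.56 and −0.24, and Ndufs1, which holds several of the clusters, was nearest to DMSO with MG132 and epoxomicin at −0.08 and −0.04. These groupings by place in the complex, here and below, were made after the values were seen.

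The lowest complex I genes by the mean of the 3 differences were Ndufaf8 and Ndufv3. Ndufaf8, whose product works with Ndufaf5 in assembly, had signals of 1615 under DMSO, 820 under MG132, 960 under epoxomicin and 1190 under ONX0914, which gave −0.79, −0.78 and −0.40. Ndufv3, an accessory subunit beside the NADH-binding flavoprotein, had 58121, 30174, 36712 and 46566 in the same order, or −0.76, −0.69 and −0.28. Its dimmer probe, 873 with DMSO, gave −0.44, −0.48 and −0.08, so the place of Ndufv3 among the lowest rests on its brighter probe. In both genes DMSO was the highest array and ONX0914 lay between it and the other inhibitors. Of the other accessory subunits, Ndufb3, Ndufa3, Ndufb10 and Ndufb4 ran from −0.74 to −0.67 under MG132, from −0.77 to −0.72 under epoxomicin, and from −0.30 to −0.21 under ONX0914. Ndufa4, at −0.65 and −0.69 with MG132 and epoxomicin, was above DMSO with ONX0914, at 0.09. With ONX0914 the highest complex I gene was Ndufa10, an accessory subunit, at 0.21, while with epoxomicin it was at −0.04. Ndufab1, the mitochondrial acyl carrier protein, was at −0.32, −0.27 and 0.00.

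A few complex I genes stayed near or above DMSO. Ndufaf6, an assembly factor of the early membrane arm, had signals of 2175, 2047, 2362 and 2356, or 0.10, 0.09 and 0.15 after scaling. Ndufaf5, which modifies an arginine of Ndufs7, had 389, 385, 391.9 and 412, or 0.17, −0.01 and 0.12. Both genes lay within 0.17 log2 of DMSO on every array, and the 8 assembly factors of complex I had medians of −0.06, −0.08 and −0.09. The sign of Ndufaf5 depended on the background correction, its range over the settings being −0.29 to 0.17 with MG132. Ndufs4, an accessory subunit, was the one complex I subunit above DMSO with MG132 and epoxomicin, at 0.07 and 0.03.

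Ndufa4l2, a paralog of Ndufa4 known as a target of hypoxia-inducible factors, showed the opposite pattern at very low signal. It read 6.84 with DMSO and 15.4 with ONX0914, neither well above background, and 44.3 with MG132 and 63.7 with epoxomicin, both well above it. Taking the lowest signal well above background as the bound for DMSO, it was at least 3.43-fold higher with MG132 and at least 4.26-fold higher with epoxomicin, or 1.78 and 2.09 log2. Over the settings the MG132 value ran from 0.66, with outlier spots left out of the normexp fit, to 2.88, with the processed signal in place of the bound. Normexp fitted on all spots gave no value for MG132. The epoxomicin value ran from 0.60 to 3.19. No value was given for ONX0914.

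Complex II held the largest downward differences among the members, and they lay in its assembly factors. Its 8 genes, 4 of them assembly factors, had medians of −0.45, −0.51 and −0.12, the lowest of the 5 complexes for each inhibitor at these settings. Over subunits alone it remained the lowest with MG132 and epoxomicin, at −0.45 and −0.51. With ONX0914 its subunits were at −0.06, above those of complex I at −0.09 and complex III at −0.08. Sdhaf1, which helps to bring iron-sulfur clusters to Sdhb, had signals of 4578 under DMSO, 1746 under MG132, 1795 under epoxomicin and 2593 under ONX0914. That is 0.43, 0.39 and 0.58 of the DMSO level after scaling, or −1.20, −1.38 and −0.78 log2, and it was the lowest member with every inhibitor. Sdhaf4, which binds flavinylated Sdha before it joins Sdhb, had 3214, 1384, 1448 and 2504, or −1.03, −1.18 and −0.32. For both genes the arrays ordered alike, with DMSO highest, ONX0914 next, and MG132 and epoxomicin close together.

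The other assembly factors of complex II were nearer to DMSO. Sdhaf2, needed to attach the flavin to Sdha, had 2075, 1860, 2156 and 2132, or 0.03, 0.03 and 0.08. Sdhaf3, which assists the maturation of Sdhb, was at −0.27, −0.14 and −0.18. Each of these 4 assembly factor genes rests on 1 probe, so the differences between them have no support from a separate probe.

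All 4 subunit genes of complex II were below DMSO with MG132 and epoxomicin, none by 2-fold. Sdhc, a membrane anchor, had signals of 13204, 6719, 8276 and 12832, or −0.79, −0.70 and 0.00. Sdhd, its partner in the membrane, had 60208, 36335, 44508 and 53890, or −0.54, −0.46 and −0.12. Both anchors were thus lower than the flavoprotein gene Sdha under the broad inhibitors: Sdha had 17314, 13420, 16002 and 17502, or −0.18, −0.14 and 0.05. Sdhb, the iron-sulfur subunit, had 50587, 34519, 35058 and 45186, or −0.36, −0.55 and −0.13. It lay between the anchors and Sdha with MG132 only. With epoxomicin it was below Sdhd, and with ONX0914 it was the lowest of the 4. With ONX0914 the 4 genes lay within 0.13 log2 of DMSO.

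**Figure D3:**
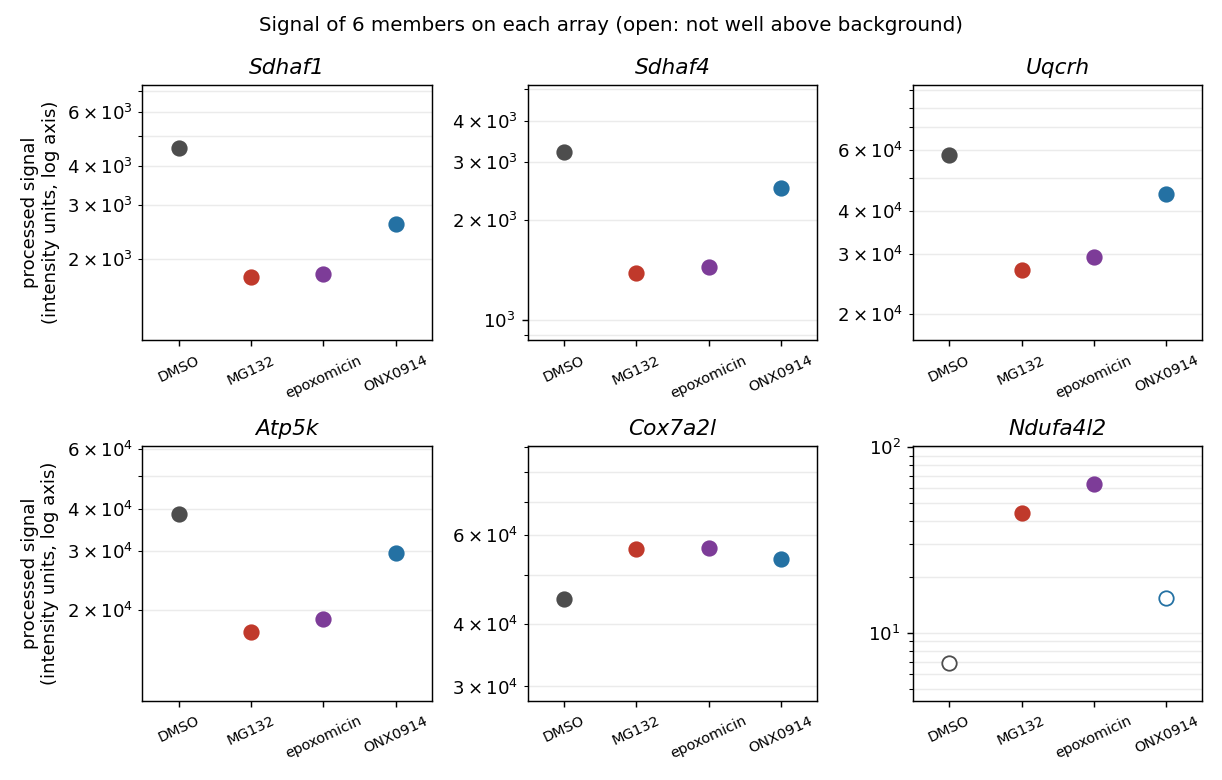
Processed signal (intensity units, log axis, each panel with its own range and not scaled between arrays) of 6 members on the 4 arrays; open circles were not well above background. On this unscaled axis Sdhaf1, Sdhaf4, Uqcrh and Atp5k are highest with DMSO and lowest with MG132, Cox7a2l is lowest with DMSO at 44875, and Ndufa4l2 is well above background with MG132 and epoxomicin and not on the other arrays.

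In complex III the small subunits were mostly lower and the core proteins lay nearer to DMSO. Over its 8 genes the medians were −0.33, −0.39 and −0.08. Uqcrh, the acidic hinge protein near cytochrome c1, had signals of 58177, 26844, 29275 and 44721, or −0.93, −1.02 and −0.34. Uqcrb, a small subunit bound next to cytochrome b, had 38631, 20290, 23472 and 32787, or −0.74, −0.74 and −0.20. Uqcr11 and Uqcr10, also small subunits, were at −0.59 and −0.56 with MG132, at −0.85 and −0.55 with epoxomicin, and at −0.18 and −0.14 with ONX0914. The core protein genes Uqcrc1 and Uqcrc2 and the Rieske iron-sulfur gene Uqcrfs1 had medians of −0.04, −0.06 and 0.09. Uqcrc2 had signals of 26031, 23496, 27767 and 26970, or 0.04, 0.07 and 0.09.

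Uqcrq was the exception among the small subunits of complex III. It had 76231, 74441, 85181 and 73794, or 0.15, 0.14 and −0.01, and its 2 probes gave 0.06 and 0.15 with MG132. The other 4 small subunits ran from −1.02 to −0.55 with the broad inhibitors, so at these settings genes of 1 complex stood on both sides of DMSO. Without scaling between arrays, Uqcrq and Uqcrc2 were below DMSO with MG132, at −0.03 and −0.15. With epoxomicin Uqcrq stayed above DMSO over the settings, from 0.06 to 0.24.

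Complex IV showed the smallest median displacement of the 5 with MG132 and epoxomicin, and its genes spread to both sides. The medians over 15 compared genes were −0.22, −0.15 and −0.04, with 10, 10 and 11 genes below DMSO. Cox7b, a small membrane subunit, had signals of 54159, 29050, 32239 and 47307, or −0.71, −0.77 and −0.16. Cox6b1, which sits on the intermembrane face, had 8967, 4862, 4740 and 7905, or −0.70, −0.94 and −0.15. Cox7a2, the widely expressed partner of the muscle isoform Cox7a1, was at −0.63 and −0.67 with MG132 and epoxomicin. Cox7c, another small membrane subunit, was at −0.44, −0.42 and −0.21. The genes Cox5a, Cox5b, Cox6a1, Cox6c and Cox8a, all widely expressed subunits, ran from −0.27 to −0.09 with MG132 and from −0.25 to −0.07 with epoxomicin. Cox4i1, the large nuclear subunit, was by contrast at 0.10, 0.07 and 0.13.

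The genes of complex IV above DMSO were mainly isoforms and an associated factor. Cox7a2l, which links complexes III and IV in supercomplexes, had 44875, 56322, 56514 and 53809, or 0.51, 0.31 and 0.30, and was the highest member with ONX0914. Its 3 probes spanned 0.44 to 0.51 under MG132, 0.30 to 0.31 under epoxomicin and 0.30 to 0.45 under ONX0914. Cox6a2, the muscle isoform, had 1693, 1943, 1819 and 1590, or 0.39, 0.08 and −0.05. The DMSO array was the lowest for Cox7a2l, whereas for Cox6a2 the ONX0914 array was.

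In complex V, at these settings, all 17 genes were below DMSO with MG132 and with epoxomicin, and 13 of 17 with ONX0914. The medians were −0.35, −0.43 and −0.04. Atp5k, subunit e of the membrane part that joins ATP synthases in pairs, had signals of 38419, 17174, 18857 and 29568, or −0.97, −1.05 and −0.34. Atp5j2, subunit f of the same region, had 57393, 33894, 36242 and 47540, or −0.57, −0.69 and −0.23. The genes of the catalytic pair were the nearest to DMSO with MG132 and epoxomicin, though not with ONX0914. Atp5b, the β subunit, had 141760, 117860, 140340 and 141410, or −0.08, −0.04 and 0.03. Atp5a1, the α subunit, had 60774, 48581, 56700 and 63185, or −0.14, −0.12 and 0.09. With normexp fitted on all spots both genes turned above DMSO. Atp5b was then at 0.09 with MG132 and 0.12 with epoxomicin, and Atp5a1 at 0.03 and 0.06.

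By place in the ATP synthase, the F1 head (Atp5a1, Atp5b, Atp5c1, Atp5d and Atp5e) had medians of −0.15, −0.32 and 0.03. The 3 genes of the membrane c ring, which encode the same mature protein, had medians of −0.52, −0.59 and −0.13, with Atp5g1 at −0.55 and Atp5g3 at −0.52 but Atp5g2 at −0.22 with MG132. Subunits of the peripheral stalk, which holds the head still, had medians of −0.37, −0.29 and −0.01, the lowest being Atp5j at −0.62 and −0.60 with MG132 and epoxomicin. The remaining membrane subunits (Atp5j2, Atp5k, Atp5l, Atp5md and Atp5mpl) had the lowest medians, at −0.57, −0.63 and −0.19. Among them Atp5mpl was at −0.61 and −0.63 and Atp5l, subunit g, at −0.24 and −0.43 with MG132 and epoxomicin. Atp5e, the ε subunit of the head, was the member with the widest gap between those inhibitors, at −0.15 and −0.47.

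**Figure D4:**
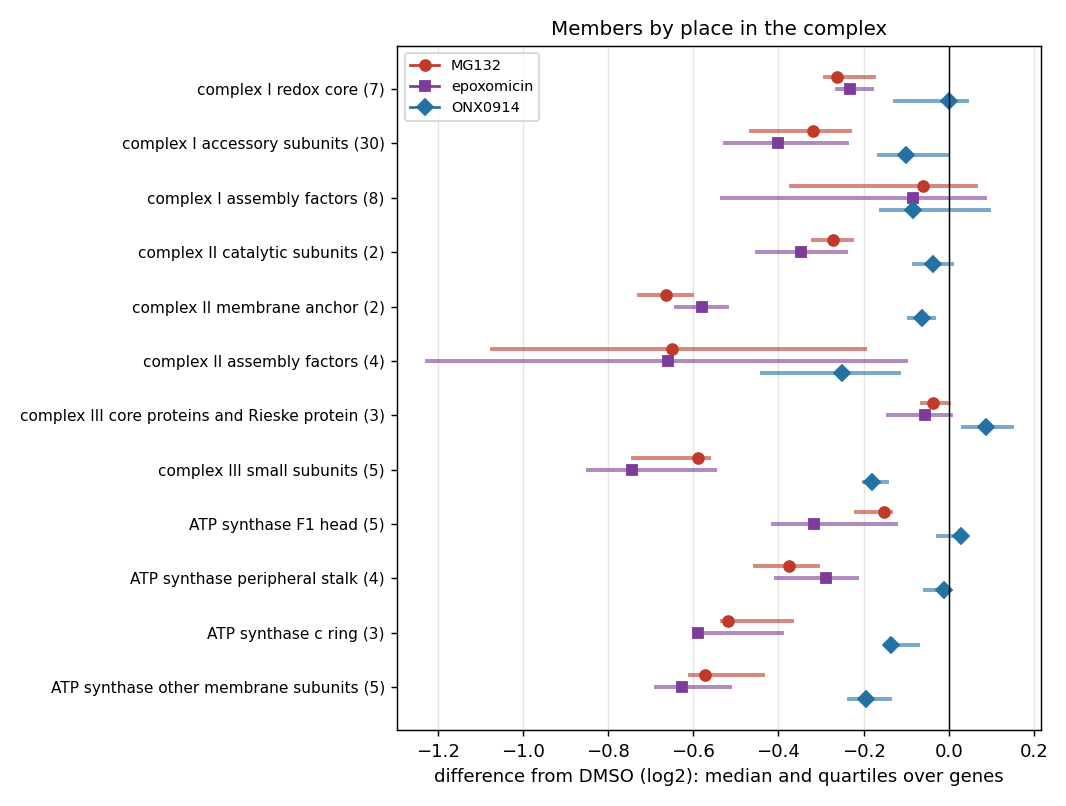
Median (symbols) and quartiles (lines) of the log2 difference from DMSO for members grouped by place in the complex, with the number of genes in brackets; in groups of 2 or 3 genes the quartiles are interpolated. Medians of the complex II anchor, complex III small subunits, and complex V c ring and other membrane subunits lie left of their catalytic or core subunits. With MG132, complex III small subunits lie at −0.59 and its core and Rieske proteins at −0.04. Single genes such as Uqcrq go the other way, and the groups were made after the values were seen.

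The inhibitors were also set against each other over the 93 members, without the DMSO array. Epoxomicin and MG132 differed little, with a median of −0.03 log2 (epoxomicin minus MG132), a range from −0.32 for Atp5e to 0.25 for Atp5pb, and epoxomicin higher in 34 of 93 members, against 49.4% of 12730 genes. At 1.5-fold, 0 members were apart, against 2.19% of all genes. ONX0914 exceeded MG132 in 85 of 93 members (91.4%), with a median of 0.24, where it exceeded MG132 in 52.9% of 12730 genes, with a median of 0.03. It exceeded epoxomicin in 86 of 93 members (92.5%), with a median of 0.28, against 55.6% and 0.05 over all genes. No member was 2-fold apart in any pair, where 0.416% of all genes were between epoxomicin and MG132, 2.49% between ONX0914 and MG132, and 4.22% between ONX0914 and epoxomicin. At 1.5-fold, 5 of 93 members were apart between ONX0914 and MG132, against 11.3% of all genes, and 9 of 93 between ONX0914 and epoxomicin, against 15.7%, the widest being Sdhc at 0.78 and Sdhaf4 at 0.85, both higher with ONX0914. The compounds were compared at the same dose and time, but with 1 array each these are differences between arrays.

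Separate probes of 1 gene gave the only check within these arrays beside repeated spots. For 23 members with at least 2 probes well above background on all arrays (53 probes), the range of the differences between probes of a gene had medians of 0.08, 0.08 and 0.06 for the 3 inhibitors. This range is technical and says nothing of the spread between cultures. Uqcrh had 2 probes at −0.95 and −0.93 with MG132 and 0.01 apart with epoxomicin. Atp5k had −0.99 and −0.97 with MG132 and −1.05 and −0.98 with epoxomicin, so that its probes fell on either side of 2-fold. The gene with the widest range was Ndufb11, at 0.61, 0.49 and 0.48 for the 3 inhibitors: its bright probe, 34008 with DMSO, gave −0.46 with MG132 and its dim probe, 147, gave 0.15. With MG132 and epoxomicin no other gene had probes of opposite sign, and with ONX0914 Atp5l, Atp5pb, Ndufb11, Ndufb6 and Uqcrq did.

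**Figure D5:**
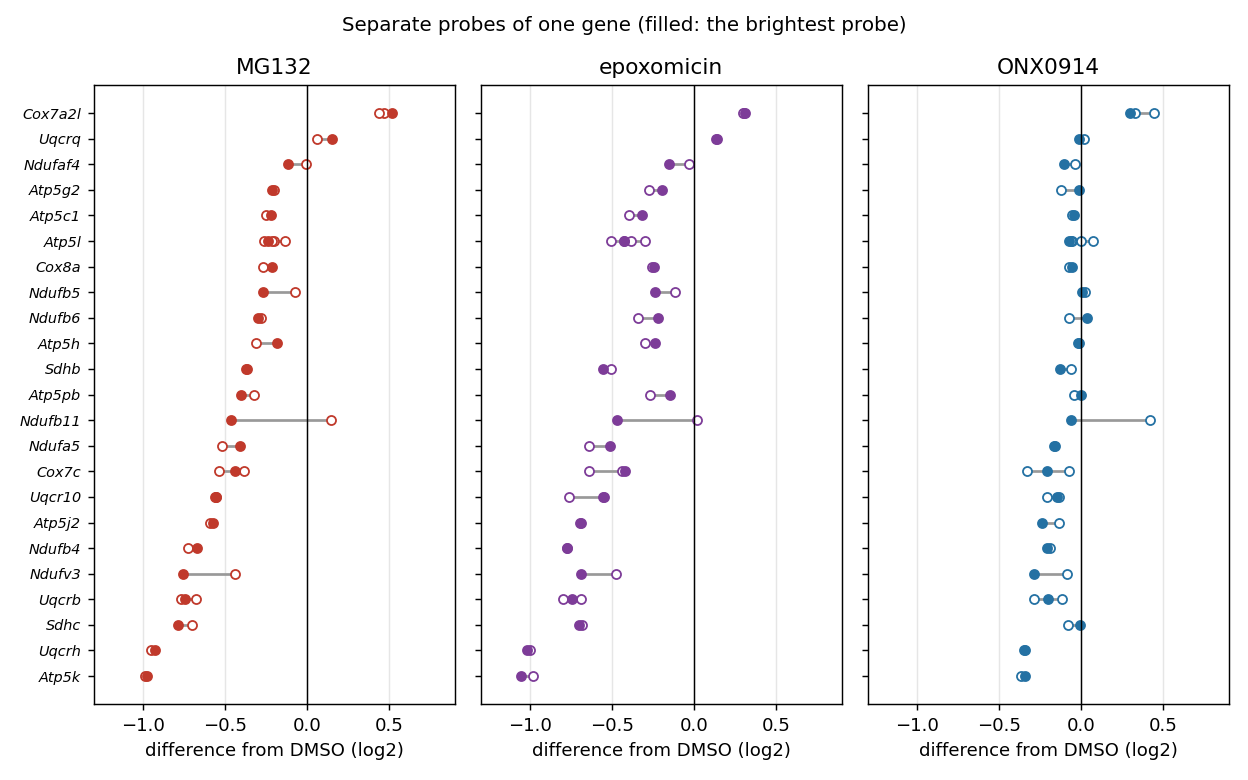
Log2 difference from DMSO of each probe for the 23 members with several probes well above background, 1 panel per inhibitor; filled circles are the brightest probe, which stood for the gene, and grey lines join the probes of a gene. Probes of a gene lie close together for most genes, at a median range of 0.08, 0.08 and 0.06. Ndufb11 has probes on both sides of 0, and those of Ndufv3 lie 0.32 apart with MG132.

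The NRF1 and YY1 letters stood in a larger share of member promoters than of RefSeq promoters at large, the ETS letters in a share near the general one, with no test, and the genes that hold them ranged widely in their differences. Over 300-base windows from 250 before to 50 after the start, with both strands read, CGCATGCG stood in 12.9% of the 85 member windows and in 1.87% of all 32851 windows, AAGATGGCG (the YY1 letters) in 9.41% and 1.40%, and CCGGAAGT in 5.88% and 3.89%. The 11 genes with the NRF1 letters had medians of −0.22, −0.23 and −0.07, and the 69 members with a window but without them had −0.32, −0.42 and −0.11. Among those 11 were Atp5k at −0.97, Ndufa11 at −0.36, Atp5g2 at −0.22 and Ndufaf5 at 0.17 with MG132, from near the lower end of the members to above DMSO. The 8 genes with the YY1 letters had medians of −0.47, −0.54 and −0.17, against −0.30, −0.36 and −0.08 in the 72 without. These letters stood before the start only in Atp5j, at −88. In the other genes they began after it, from base 11 in Ndufaf8 to base 36 in Ndufs4. With the ETS letters, 5 genes (Atp5h, Cox8a, Ndufs3, Uqcr11 and Uqcrh) had medians of −0.31, −0.25 and −0.17, against −0.31, −0.42 and −0.09. A match of letters is a description of sequence and says nothing of binding.

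Among regulators of these genes, Ppargc1b was the one gene of the related lists at least 2-fold lower with all 3 inhibitors. Ppargc1b encodes the coactivator PGC-1β, and its signal was 225 under DMSO, 50.8 under MG132, 65.2 under epoxomicin and 95.3 under ONX0914, or −1.96, −1.81 and −1.20. The related Ppargc1a was not well above background on any array. Nrf1 was at 0.04, 0.05 and −0.03 and Yy1 at 0.10, 0.04 and −0.07, while Gabpa was at 0.15, 0.38 and −0.09. Tfam, which packages and transcribes mitochondrial DNA, was at 0.06, 0.26 and −0.07, and Polrmt, the mitochondrial RNA polymerase, at −0.48, −0.53 and −0.20. Over the regulators that could be compared, 1 of 13, 1 of 14 and 1 of 13 were at least 2-fold lower, each time Ppargc1b. The shares over all genes were 3.65%, 4.49% and 1.41%. Perm1 was at least 2-fold higher with epoxomicin as a bound, where 8.41% of all genes were higher.

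Cytochrome c genes and other subunits outside the name prefixes had medians of −0.29, −0.29 and −0.10 over 6, 6 and 5 genes. Cyc1, the haem subunit of complex III, was at −0.25, −0.29 and 0.03, and Cycs, cytochrome c, at −0.10, −0.17 and 0.02. Atpif1, the inhibitor of ATP synthase run in reverse, was at −0.52, −0.54 and −0.23, and Higd2a, a supercomplex factor, at −0.73, −0.76 and −0.26. Of the assembly factors outside the prefixes, 1 of 36 was at least 2-fold lower with MG132 and 1 of 37 with epoxomicin. It was Uqcc3 of complex III, at −1.17 and −1.18, where 3.65% and 4.49% of all genes were lower. Sco1, a copper chaperone of complex IV, was the one at least 2-fold higher, with signals of 263, 559, 797 and 341, or 1.27, 1.58 and 0.41. Over all genes, 7.25% were at least 2-fold higher with MG132 and 8.41% with epoxomicin. The medians of these assembly factors, −0.06, −0.10 and −0.03, lay nearer to those of all genes than the subunits did.

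By their medians, other mitochondrial lists were displaced less or the other way. None of the 13 enzyme genes of the citric acid cycle reached 2-fold, and their medians were −0.07, −0.08 and 0.06, with Dld highest at 0.56, 0.68 and 0.45. The mitochondrial ribosomal proteins, 77 compared, had medians of −0.10, −0.19 and −0.03. Of them 6, 5 and 0 were at least 2-fold lower, against 3.65%, 4.49% and 1.41% of all genes. The lowest, Mrpl41, was at −1.43, −1.45 and −0.87, below every member. Mitochondrial chaperones and proteases had medians of 0.17, 0.14 and 0.15, led by Hspd1, the chaperonin Hsp60, at 0.75, 0.98 and 0.24, and its partner Hspe1 at 0.68, 0.91 and 0.17. The 13 mitochondrially encoded subunits could not be paired with a probe through the names at hand and were not analysed here.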

How the data were processed

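RNA of 4 J774.1 cultures, 1 per condition, was labelled with Cy3 and hybridised to Agilent mouse arrays of 1 slide. The authors deposited the scanner output of Feature Extraction 10.7.1.1, whose processed signal is an intensity after background subtraction, and a value table that set against the scanner output holds log2 values; that deposited log2 table served as an alternative. Control spots and outlier spots were left out, spots of a probe were averaged, and log2 processed signal minus the array's 75th percentile was compared between each inhibitor and DMSO (Python 3.11.15, pandas 2.3.3; normexp with offset 50 in limma 3.58.1). The scanner files used here hold no gene names, so accessions were matched to RefSeq, which named 26581 of 39429 probes (67.4%). The brightest probe stood for a gene. Where the dimmer array was not well above background, the lowest signal well above background replaced it as a bound. A call was at least 2-fold, with no test, since each condition has 1 array.

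Genes were named by rule: members at least 2-fold from DMSO, the 2 highest and 2 lowest of each complex by the mean of the 3 differences, all complex II subunits, and related genes at least 2-fold from DMSO with all 3 inhibitors; others illustrate a count. The members and lists were chosen with earlier results of these data known. The number of arrays limits the precision. The normexp alternative used median spot signals. The calculation was tested on simulated data. The values of 1 member are not reported here by name.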

Additional observations from a re-analysis of the deposited data

How the results depend on the processing

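With 27 summary values over 14 settings, 284 of 327 recomputed values stayed within 0.09 log2 of the reported value or, for counts, within 1.5 times, and 43 did not. Normexp fitted on all spots gave MG132 medians of −0.17 over all members and of −0.14, −0.18, −0.12 and −0.17 for complexes I, III, IV and V. It gave epoxomicin medians of −0.19, −0.37, −0.22, −0.061 and −0.28 for complexes I to V, and turned ONX0914 medians to 0.052 over all members, to 0.052, 0.046 and 0.051 for complexes I, II and III, and to 0.10 for complex V. Medians minus those of all genes turned to 0.10, 0.052 and 0.22, and members at least 2-fold lower numbered 1 with MG132, where 18.4% of all genes were, and 2 with epoxomicin, where 22.1% were. A shift to the median of the array gave MG132 medians of −0.38 over all members and −0.38, −0.55, −0.42, −0.31 and −0.45 for complexes I to V. No scaling gave −0.47 over all members and −0.47, −0.64, −0.51, −0.40 and −0.53, and either setting left 4 members at least 2-fold lower with MG132, against 4.96% of all genes with the shift and 6.5% without scaling. No member was at least 2-fold higher (0 with MG132 and 0 with epoxomicin) under normexp, under normexp with outlier spots left out of its fit (chosen after seeing the data), or with genes well above background on all arrays. At 1.5-fold the counts of lower members were 20, 23 and 1. The cause of these shifts was not tested, except that a new threshold or filter changes counts by construction.

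Of 773 recomputed differences of named genes, 657 stayed within 0.09 log2 and 116 did not. The scaling settings moved the median of all genes by over 0.1 for MG132 without scaling, by −0.18, and under normexp, by −0.25, −0.26 and −0.16. Naming by accession alone equals the reported naming and was not run. No paired analysis was possible because each condition has 1 array. Signals near background, such as that of Ndufa4l2, give a bound only.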
